A study of Mus musculus with 10 samples.

Results

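The nuclear-encoded subunits of the mitochondrial respiratory chain and ATP synthase were examined in mouse C3H10 T1/2 cells kept static or stretched in culture. Members were all genes of the RNA-seq count table whose symbol met a name rule. Symbols made of Ndufa, Ndufb, Ndufc, Ndufs or Ndufv and a number with nothing after it met the rule, which leaves out Ndufa4l2. So did the succinate dehydrogenase genes Sdha to Sdhd, and symbols that begin with Uqcr, with Cox and a digit from 4 to 8, or with Atp5. After 9 pseudogene rows with such names were left out, 83 of the 46095 genes in the table were members. They comprised 35 genes of complex I, 4 of complex II, 8 of complex III, 19 of complex IV and 17 of complex V. Ndufa4, named for complex I, was placed in complex IV, where the protein is now assigned. Atp5s and Atp5sl carry the complex V name but are not subunits of that complex. Of the 83 members, 77 had enough counts to be tested.

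RNA was sequenced in 3 libraries of static cells, the controls, and 3 of cells under cyclic mechanical strain, both from C3H10 T1/2, a mesenchymal line of mouse embryo origin that can form bone, cartilage and fat cells. The labels give the strain as C57BL/6 for all 6 libraries, although the line is usually described as of C3H origin, and name no genetic change in either group. Both groups were grown for 48 h on collagen-coated flexible plates, and the strain group was then stretched by 10% at 0.5 Hz for 8 h on each of 3 days. ATAC-seq, which marks open chromatin by transposase insertion, was run on 2 libraries of GFP control cells and 2 of cells in which CRISPR/Cas9 had knocked out Piezo1, a stretch-activated ion channel. The ATAC-seq cells were not labelled as strained, so the assays share the line but not the groups. The work rests on a single cell line in culture, and nothing in the labels ties replicates to separate cultures. The p-values therefore reflect the spread among these 6 libraries only, which may be technical.

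Library totals lay between 36150738 and 41024689 counts. Levels are given as CPM, counts scaled to a common library size, after TMM scaling, which adjusts each library for its composition, and intervals and standard errors (SE) come from edgeR's quasi-likelihood test. Of 10 mesenchymal markers, 9 were above 1 CPM in every library, while Thy1 was at most 0.0569 CPM. Of 23 markers of other cell types, 20 were under 1 CPM in every library and 13 of them had no count. Cdh1, Krt14 and Cd68 were above that level in every library, and the epithelial cadherin gene Cdh1 lay between 6.23 and 8.44 CPM in the controls and between 1.10 and 2.62 CPM under strain. The part of these 3 markers in the results below was not tested. In such bulk samples, fewer cells of a type and less RNA per cell cannot be told apart.

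The respiratory chain sits in the inner mitochondrial membrane. Complexes I and II pass electrons from NADH and succinate to ubiquinone, complex III passes them on to cytochrome c, and complex IV passes them to oxygen. Complexes I, III and IV pump protons, and complex V uses the resulting gradient to make ATP. Most subunits are encoded in the nucleus and imported, while a small hydrophobic core is encoded in mitochondrial DNA, so that the complexes are built from products of both genomes. Mesenchymal cells are known to shift between glycolysis and oxidative phosphorylation as they differentiate.

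Few of these genes changed under strain. Of the 77 tested members, 4 were lower and 0 were higher under strain at a Benjamini-Hochberg adjusted p under 0.05 in edgeR's quasi-likelihood test, fitted on all genes. Over all 15335 genes tested, 7.39% were called lower and 5.94% higher, so the members' count was not above the background. At an unadjusted p under 0.05 there were 13 members, against 29.6% of all genes. The 4 lower members were Ndufv3 and Ndufa6 of complex I, Uqcrh of complex III, and Cox7a2l, a factor joining complexes III and IV. The median log2 fold change was -0.15 over the 77 members, with 57 below 0 and 20 above, and 0.0049 over all genes tested, where 49.4% were below 0. The 95% interval lay inside a 1.5-fold change in either direction for 55 of the 77 members, against 46.0% of all genes. Each of these 55 intervals, taken singly, leaves out a larger change at the 95% level, but they do not hold jointly over the 55 members. They rest on the spread among these 6 libraries, and without 1 library such intervals numbered 35 to 64. A missed threshold by itself does not show equal levels.

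**Figure D1:**
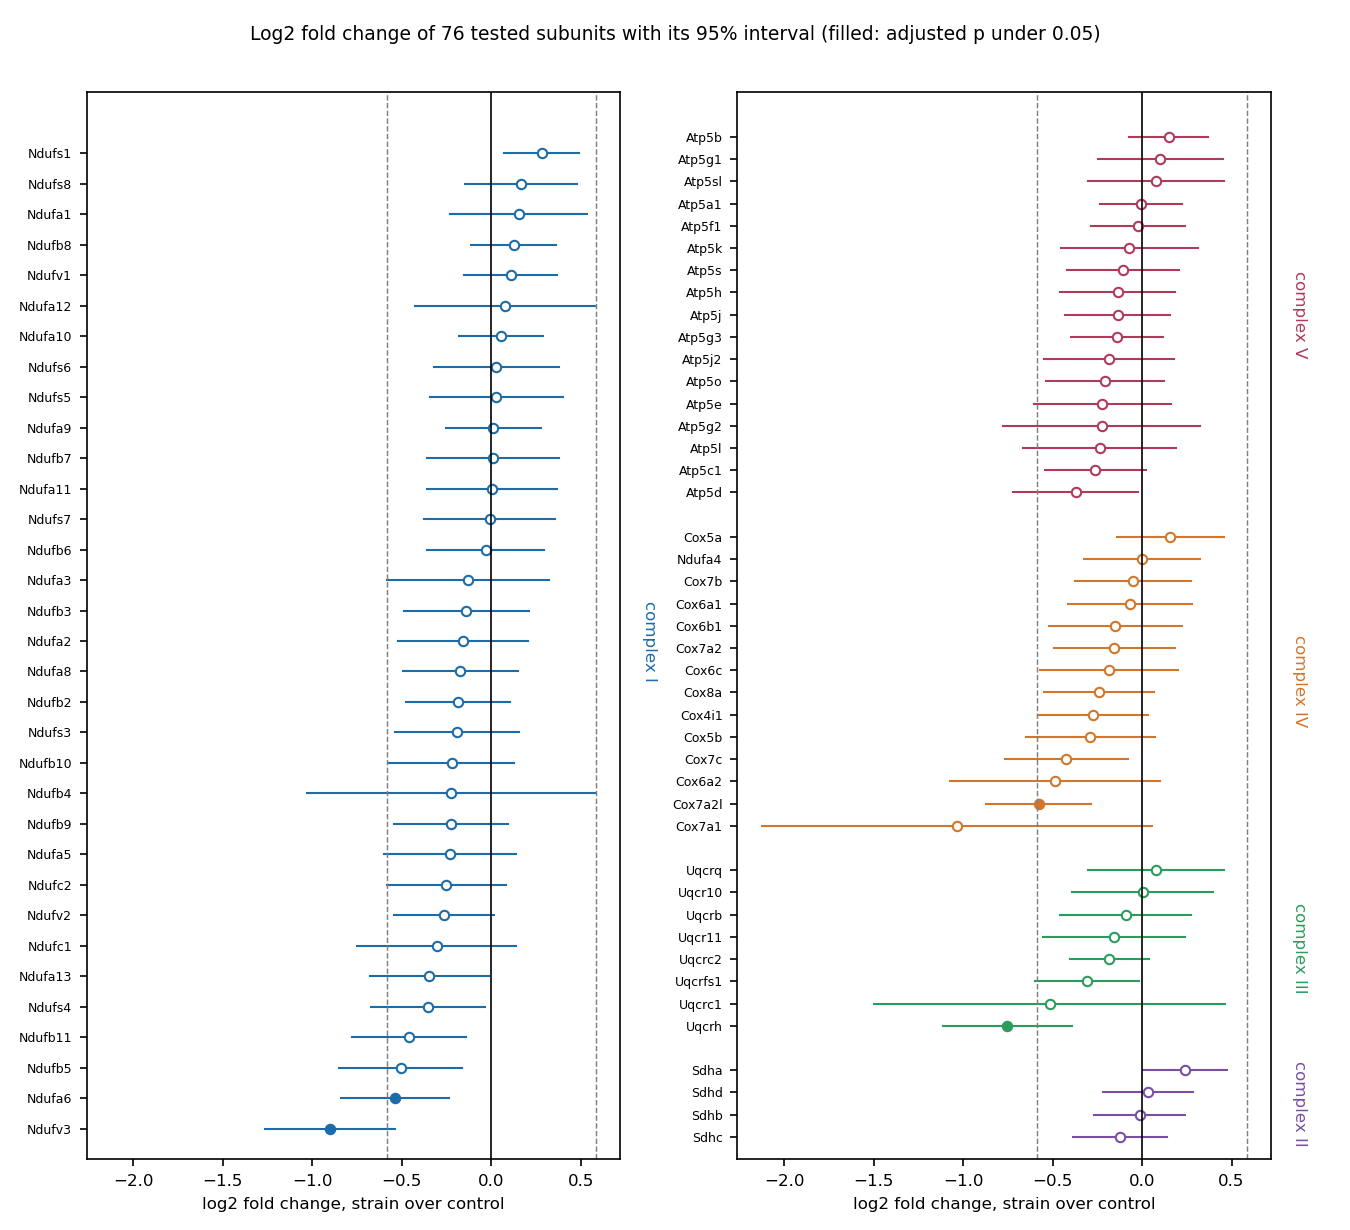
Log2 fold change (strain over control, x axis) of 76 of the 77 tested subunits, with complex I on the left and complexes II to V on the right. Lines are 95% intervals, filled points the 4 members with an adjusted p under 0.05, and dashed lines mark a 1.5-fold change; most points lie between 0 and -0.5 and most intervals stay between the dashed lines.

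Ndufv3 encodes a small accessory subunit at the tip of complex I, next to the module that oxidises NADH. Listed from replicate 1 to 3, as are all values that follow, it measured 87.9, 73.9 and 123 CPM in the controls and 52.3, 49.0 and 50.9 CPM under strain. All 3 strain libraries lay below all 3 controls, and control replicate 3 was the highest. The mean fell from 94.9 ± 25.2 to 50.8 ± 1.68 CPM (SD, n = 3), a log2 fold change of -0.90 (SE 0.16, edgeR quasi-likelihood Benjamini-Hochberg adjusted p = 0.00543). The 95% interval ran from 0.416 to 0.687 of the control level. The gene lies at chr17:31520115-31531326 (GRCm38.p6, the mm10 build), and no other RefSeq gene overlaps it.

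Uqcrh encodes the hinge protein of complex III, an acidic subunit that helps cytochrome c dock at cytochrome c1. Its levels were 107, 90.1 and 147 CPM in the controls and 70.4, 62.2 and 71.8 CPM under strain. The groups again did not overlap, and control replicate 3 again stood highest. The log2 fold change was -0.75 (SE 0.16, edgeR adjusted p = 0.0138), with a 95% interval from 0.463 to 0.762 of the control level. Uqcrh lies at chr4:116066965-116075070 and overlaps the pseudogene Gm12854, which has no row of its own in the count table, so the assignment of its reads is uncertain.

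Cox7a2l encodes a protein related to the complex IV subunit 7a that links complexes III and IV into supercomplexes. It was measured at 292, 275 and 377 CPM in the controls and at 225, 189 and 219 CPM under strain. Every strain library was below every control. The change was -0.58 on the log2 scale (SE 0.13, edgeR adjusted p = 0.0183), and the 95% interval ran from 0.547 to 0.821 of the control level. The gene is at chr17:83501917-83514333.

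Ndufa6, an accessory subunit of the arm of complex I that reaches into the matrix, belongs to the LYR-motif family of iron-sulfur assembly and complex I proteins. Its control levels were 59.7, 59.6 and 81.6 CPM and its strain levels 42.9, 46.1 and 49.2 CPM. Control replicates 1 and 2 were nearly equal, and the strain libraries lay below both. The log2 fold change was -0.54 (SE 0.14, edgeR adjusted p = 0.0280), with an interval from 0.558 to 0.848 of the control level. It maps to chr15:82350139-82354291.

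The calls rested on different numbers of libraries. Ndufv3 kept an adjusted p under 0.05 in each of the 6 fits that left out 1 library, the highest being 0.0294 in edgeR. The call on Uqcrh was lost without strain replicate 2 (edgeR adjusted p = 0.0501), and that on Cox7a2l without strain replicate 2 (0.0730) or 3 (0.0583). The call on Ndufa6 was lost without strain replicate 1 (edgeR adjusted p = 0.0758), 2 (0.0790) or 3 (0.0654). All 4 stayed below 0 in each of these fits.

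The gene starts of these 4 members and of Sdha, the member of complex II with the largest fold change, are shown because the ATAC-seq lists and the motif search below refer to them. Each sequence runs 5′ to 3′ along the gene from 250 bases before the RefSeq start to 50 after it (RefSeq, GRCm38.p6). Capitals mark the matches to the motifs searched, which are GCGC, any base and TGCGC for the factor NRF1, CCGGAAG for ETS factors such as GABP, AAGATGGCG for YY1 and TCAAGGTCA for estrogen-related receptors, on both strands. The windows are chr17:31519865-31520164 on the plus strand for Ndufv3, chr4:116075021-116075320 on the minus strand for Uqcrh and chr17:83514284-83514583 on the minus strand for Cox7a2l. Those of Ndufa6 and Sdha are chr15:82354242-82354541 and chr13:74350191-74350490, both on the minus strand.
Ndufv3: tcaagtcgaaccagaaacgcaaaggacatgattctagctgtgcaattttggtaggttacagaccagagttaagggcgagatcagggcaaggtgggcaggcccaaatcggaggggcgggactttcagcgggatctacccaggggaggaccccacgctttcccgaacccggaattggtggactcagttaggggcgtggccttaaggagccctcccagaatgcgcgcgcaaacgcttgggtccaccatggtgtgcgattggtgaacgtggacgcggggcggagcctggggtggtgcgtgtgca
Uqcrh: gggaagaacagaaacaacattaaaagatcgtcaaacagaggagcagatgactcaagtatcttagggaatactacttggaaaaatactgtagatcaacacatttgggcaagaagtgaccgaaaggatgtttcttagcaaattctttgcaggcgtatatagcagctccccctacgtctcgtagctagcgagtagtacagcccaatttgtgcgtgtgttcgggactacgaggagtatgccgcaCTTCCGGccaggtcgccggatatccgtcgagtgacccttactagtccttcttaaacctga
Cox7a2l: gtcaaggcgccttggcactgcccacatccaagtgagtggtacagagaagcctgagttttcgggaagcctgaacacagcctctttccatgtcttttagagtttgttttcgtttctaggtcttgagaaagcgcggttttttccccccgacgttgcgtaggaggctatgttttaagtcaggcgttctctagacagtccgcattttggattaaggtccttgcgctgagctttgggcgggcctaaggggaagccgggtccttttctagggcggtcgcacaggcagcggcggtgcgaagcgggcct
Ndufa6: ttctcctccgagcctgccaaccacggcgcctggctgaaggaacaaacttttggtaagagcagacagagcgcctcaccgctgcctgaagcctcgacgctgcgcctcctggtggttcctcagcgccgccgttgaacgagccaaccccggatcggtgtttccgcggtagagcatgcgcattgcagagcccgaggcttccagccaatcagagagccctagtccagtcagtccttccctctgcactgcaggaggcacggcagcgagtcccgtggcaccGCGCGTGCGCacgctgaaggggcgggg
Sdha: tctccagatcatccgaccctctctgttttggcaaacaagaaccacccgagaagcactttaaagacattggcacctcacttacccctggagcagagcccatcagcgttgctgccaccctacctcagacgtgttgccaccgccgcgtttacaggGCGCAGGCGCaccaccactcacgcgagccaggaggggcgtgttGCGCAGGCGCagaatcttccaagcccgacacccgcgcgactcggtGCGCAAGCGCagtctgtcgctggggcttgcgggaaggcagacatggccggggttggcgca
The window of Uqcrh held an ETS match on the opposite strand, with its leftmost base 10 bases before the start, and that of Ndufa6 an NRF1 match beginning at base 24 after the start. Sdha held 3 NRF1 matches, beginning 98, 55 and 10 bases before the start. None of the 4 motifs was found in the windows of Ndufv3 and Cox7a2l, which says only that these letters are absent from these 300 bases.

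Over the members, 69 had a start in the RefSeq promoter table and 14 had no entry there. The NRF1 motif was in 17 of these 69 windows (24.6%), against 5.19% of all 27025 windows in the table and 11.1% of the 10520 windows of genes tested in the RNA comparison. The members with it included Sdha, Sdhd, Uqcrc1, Atp5c1 and Atp5g3. The ETS motif was in 16 member windows (23.2%), against 9.93% of all and 19.1% of tested genes. The YY1 motif was in 8 (11.6%), against 1.64% and 3.41%. The estrogen-related receptor motif was in 2 windows (2.9%), those of Atp5g3 and Sdhd, against 0.466% and 0.342%. At least 1 of the motifs of NRF1, ETS and YY1 was in 35 of 69 member windows (50.7%), against 15.1% of all and 29.9% of tested genes. The ETS motif ends and the YY1 motif begins with the letters AAG, so neighbouring matches of these motifs can share bases. A match is a description of the sequence and not a binding site.

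Complex I is built from core subunits that carry the flavin and the iron-sulfur clusters, and from accessory subunits that surround them. Of its 34 tested members, 2 were lower and 0 higher, against 7.39% and 5.94% of all genes tested. The median log2 fold change was -0.16, with 22 of 34 below 0, against 49.4% of all genes. Without control replicate 3 the median was 0.044 and 15 of 34 were below 0. The 7 core subunits encoded in the nucleus had a median of -0.0099, with 0 called, and all 7 intervals lay inside a 1.5-fold change. The 8 tested accessory subunits of the matrix arm had a median of -0.19 and held both calls, Ndufv3 and Ndufa6. The 19 accessory subunits of the membrane arm had a median of -0.17 and no call. Without control replicate 3 the median was 0.21 for the core subunits. It was then 0.0066 for the accessory subunits of the matrix arm and 0.019 for those of the membrane arm.

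Ndufs1, the largest core subunit and a carrier of iron-sulfur clusters, had the highest log2 fold change of all 77 members. It measured 63.4, 64.0 and 61.0 CPM in the controls and 72.0, 80.1 and 77.0 CPM under strain. It was the 1 member whose strain libraries all lay above the controls, a pattern found in 17.4% of all genes. Its log2 fold change of 0.28 (SE 0.09) missed the threshold in edgeR (adjusted p = 0.0751) and passed it in DESeq2 (adjusted p = 0.0461). The gene (chr1:63143592-63176822) overlaps the long non-coding gene Ino80dos over 14704 bases, and the strand setting of the counting is not given in the sources used here.

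Ndufv1 carries the flavin that accepts electrons from NADH. It measured 136, 133 and 164 CPM in the controls and 150, 142 and 174 CPM under strain, so the groups overlapped, with a log2 fold change of 0.11 (SE 0.12, edgeR adjusted p = 0.580). Ndufs7 and Ndufs8, which hold the iron-sulfur clusters nearest to ubiquinone, had log2 fold changes of -0.0099 and 0.17, and Ndufv2 and Ndufs3 had -0.26 and -0.19.

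The members just outside the threshold, named here after their values were seen, were Ndufb5 and Ndufb11, small subunits of the membrane arm. Ndufb5 gave 51.4, 43.5 and 67.8 CPM in the controls and 41.4, 34.6 and 38.5 CPM under strain (log2 fold change -0.51, SE 0.16, edgeR adjusted p = 0.0562). Ndufb11 gave 79.6, 69.2 and 105 CPM against 60.8, 59.0 and 64.5 CPM (-0.46, SE 0.14, adjusted p = 0.0590). The groups did not overlap in either gene. DESeq2, which called 18.7% of all genes in either direction, and upper-quartile scaling in edgeR, which called 8.54% lower and 4.73% higher, called both lower. Without control replicate 3 the changes were smaller, at -0.31 for Ndufb5 (edgeR adjusted p = 0.120) and -0.28 for Ndufb11 (0.109). Ndufb11 shares 263 bases with the counted gene Rbm10. In all, 11 members had every strain library below every control, against 17.9% of all genes.

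Ndufa7, an accessory subunit of complex I, was the only member of that complex left untested, at 0 to 6 counts in a library. Ndufb4, in the membrane arm, had only 56 to 148 counts, and its interval, from 0.490 to 1.497 of the control level, was correspondingly wide. How reads with several mapping places were treated is not given in the sources used here, so low counts of genes with close copies elsewhere in the genome are uncertain. Of the 83 members, 26 overlap another RefSeq gene and 21 of them a gene with its own row in the count table.

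Complex II, succinate dehydrogenase, has all 4 subunits encoded in the nucleus and belongs to both the citric acid cycle and the respiratory chain. None of the 4 genes was called, their median log2 fold change was 0.0096, and all 4 intervals lay inside a 1.5-fold change. Without control replicate 3 the median was 0.11, with 0 of 4 below 0 and none called. Sdha, the flavin-bearing catalytic subunit, measured 220, 246 and 232 CPM in the controls and 245, 302 and 278 CPM under strain. Strain replicate 1 lay just under control replicate 2, and strain replicates 2 and 3 were above all controls. The log2 fold change was 0.24 (SE 0.11, edgeR adjusted p = 0.163). Sdhb, the iron-sulfur subunit, gave 69.0, 69.3 and 86.4 CPM against 79.3, 70.9 and 72.3 CPM, with overlapping groups and a change of -0.014 (SE 0.12). The membrane anchors Sdhc and Sdhd, which hold the heme and the ubiquinone site, had log2 fold changes of -0.12 and 0.033.

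Complex III, the cytochrome bc1 complex, moves electrons from ubiquinol to cytochrome c. Of 8 tested members 1 was lower, Uqcrh, against 7.39% of all genes tested. The median was -0.17, or -0.016 without control replicate 3. The Rieske iron-sulfur subunit Uqcrfs1 measured 67.4, 59.2 and 85.3 CPM in the controls and 56.7, 58.2 and 56.6 CPM under strain. The strain libraries were close to each other and all below the controls, though by little below control replicate 2. The change of -0.31 (SE 0.13) had an unadjusted p of 0.0415 and an edgeR adjusted p of 0.150. Uqcrc2, a core protein of the matrix side, gave 86.1, 84.0 and 97.1 CPM against 79.5, 75.5 and 80.4 CPM, with groups that did not overlap and a change of -0.18 (SE 0.10, adjusted p = 0.244).

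Uqcrc1, the partner of Uqcrc2, was counted at only 27 to 105 reads in a library. The cause of these low counts was not tested, so they do not show that the gene is nearly silent. Its levels were 1.02, 2.95 and 1.31 CPM in the controls and 1.22, 0.722 and 1.72 CPM under strain. Control replicate 2 alone set its log2 fold change of -0.52 (SE 0.44), which was 0.076 without that library. The small subunits Uqcr10, Uqcr11, Uqcrb and Uqcrq had log2 fold changes between -0.16 and 0.077, none of them called. Uqcrq, which sits beside cytochrome b, had the highest log2 fold change of the complex, at 69.0, 68.9 and 104 CPM in the controls and 99.9, 73.9 and 81.6 CPM under strain.

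Complex IV, cytochrome c oxidase, has subunits with ubiquitous and tissue-restricted isoforms. Of 14 tested members 1 was lower, the supercomplex factor Cox7a2l, against 7.39% of all genes tested. The median was -0.21, with 13 of 14 below 0, but 0.0065 with 7 of 14 below 0 when control replicate 3 was left out. Cox4i1, the ubiquitous form of the largest nuclear-encoded subunit, measured 452, 443 and 611 CPM in the controls and 396, 389 and 462 CPM under strain. Strain replicate 3 lay above control replicates 1 and 2, so the groups overlapped, and the change was -0.27 (SE 0.14, edgeR adjusted p = 0.217). Cox5a, which binds a thyroid hormone metabolite, had the only positive change of the complex, with 55.6, 54.7 and 75.9 CPM against 66.8, 66.5 and 74.4 CPM (log2 fold change 0.16, SE 0.14). Ndufa4 had the highest adjusted p of all members (0.996 in edgeR), with 75.8, 75.9 and 109 CPM against 79.8, 88.2 and 92.5 CPM.

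Most of the restricted isoforms had few or no counts. Shares of counts are given within a subunit and are not divided by transcript length, so they compare libraries and not isoforms. The lung and hypoxia isoform Cox4i2 had 4 counts over the 3 controls and 9 under strain, and the testis isoform Cox6b2 had 2 and 1. Cox8b, of heart and muscle, and Cox8c had 0 counts in every library, which allows a share of up to 0.00944% of the Cox8 counts in the controls and 0.0101% under strain. The testis isoform Cox7b2 had 11 counts in the controls, 10 of them in replicate 1, and 0 under strain, which allows up to 0.0382%. These limits cover counting error only, and reads of amplified cDNA without molecular identifiers need not be independent molecules.

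Restricted forms that passed the filter were Cox6a2 and Cox7a1, both of heart and skeletal muscle. Cox6a2 made up between 2.17% and 2.74% of Cox6a counts in the controls and between 1.26% and 2.82% under strain, with strain replicate 1 the highest of the 6 libraries. Cox7a1 had 43 counts over the controls and 23 under strain, or between 0.565% and 0.822% against between 0.220% and 0.558% of Cox7a counts. The groups did not overlap by a narrow gap, and its log2 fold change of -1.04 (SE 0.49), the lowest of all members, was not called (edgeR adjusted p = 0.187). The ubiquitous partners Cox6a1, Cox6b1, Cox7a2, Cox7b and Cox8a had log2 fold changes of -0.067, -0.15, -0.16, -0.050 and -0.24, with none called. Of the skeletal and cardiac muscle markers, Ckm, Myod1, Myog, Myh1, Myh6 and Nppa had no count in any library, and Tnnt2 lay between 0.142 and 0.225 CPM in the controls and at up to 0.134 CPM under strain.

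Complex V, the ATP synthase, joins a catalytic head in the matrix to a rotor in the membrane. None of its 17 members was called, and the median was -0.14 with 14 of 17 below 0. Without control replicate 3 it was 0.041, with 7 of 17 below 0. Atp5b, the catalytic beta subunit, measured 918, 961 and 1069 CPM in the controls and 1065, 1076 and 1126 CPM under strain. Control replicate 3 lay among the strain libraries, while control replicates 1 and 2 were below all of them. Its change of 0.15 (SE 0.10, edgeR adjusted p = 0.354) was the highest of the complex. Atp5a1, the alpha subunit that alternates with beta in the head, gave 775, 801 and 877 CPM against 757, 807 and 878 CPM, nearly the same values in both groups, with a change of -0.0066 and a 95% interval from 0.850 to 1.17 of the control level.

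Atp5c1, the central shaft that turns within the head, had 197, 178 and 245 CPM against 185, 158 and 174 CPM (log2 fold change -0.26, SE 0.13, edgeR adjusted p = 0.198). Atp5d, the delta subunit at the foot of that shaft, had the lowest change of the complex. It measured 221, 227 and 332 CPM in the controls and 187, 188 and 228 CPM under strain, with strain replicate 3 just above control replicate 2. The change was -0.37 (SE 0.16, edgeR adjusted p = 0.147), and Atp5d shares 1658 bases with the counted gene Cbarp. The 4 subunits of the peripheral stalk, which holds the head still, had log2 fold changes from -0.21 to -0.022.

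The membrane ring of identical c subunits is encoded by 3 genes whose mature proteins are the same and whose import sequences differ. Atp5g3 held between 85.5% and 87.2% of the counts of the 3 genes in the controls and between 82.0% and 86.4% under strain. Atp5g1 held between 11.5% and 13.3% against between 12.7% and 16.7%, and Atp5g2 between 1.21% and 1.35% against between 0.916% and 1.36%. Strain replicate 1 had the highest Atp5g1 share and the lowest Atp5g3 share, and the groups overlapped for all 3 genes. Their log2 fold changes were 0.10 for Atp5g1, -0.23 for Atp5g2 and -0.14 for Atp5g3, with none called. Near-identical coding sequences make the split of reads between these genes uncertain.

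**Figure D2:**
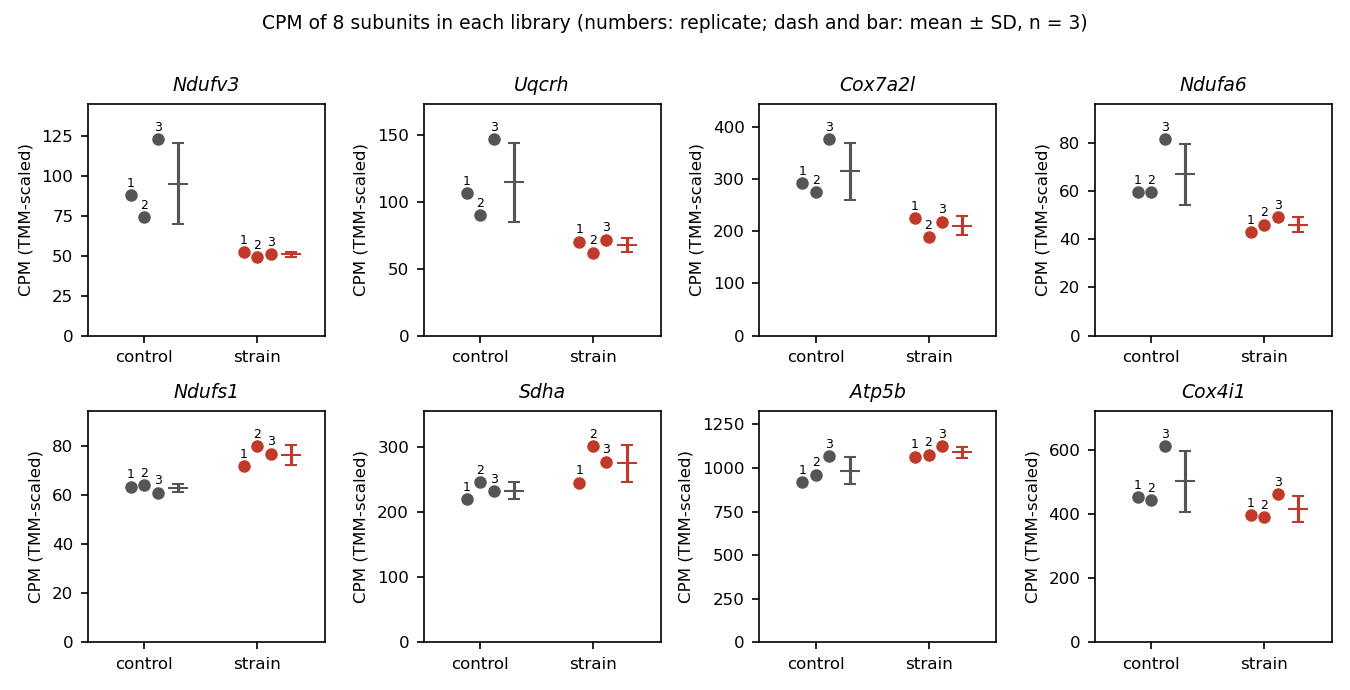
CPM (TMM-scaled, y axis from 0) of the 4 called members (Ndufv3, Uqcrh, Cox7a2l, Ndufa6) and of Ndufs1, Sdha, Atp5b and Cox4i1 in each library, with points numbered by replicate and mean ± SD (n = 3) beside them. In the 4 called genes the strain points lie below all control points, and control replicate 3 is the highest point in 5 of the 8 panels (also in Cox4i1), whereas Ndufs1 shows strain points above all controls.

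Control replicate 3 moved with these genes. It had the highest CPM of the 6 libraries for 64 of the 77 tested members, against 28.2% of all genes tested. The ratio of its CPM to the mean of control replicates 1 and 2 had a median of 1.38 over the members and 0.998 over all genes. The ratio was lowest for Uqcrc1 (0.659), Atp5s (0.946), Ndufs1 (0.957) and Sdha (0.995), and highest for Ndufa12 (1.70) and Ndufa3 (1.70), small accessory subunits of complex I. By complex, control replicate 3 was highest for 28 of 34 members of complex I, 2 of 4 of complex II, 7 of 8 of complex III, 14 of 14 of complex IV and 13 of 17 of complex V. The summed CPM of all 83 members was 7762, 7663 and 10064 in the controls and 7760, 7572 and 8297 under strain, so that 5 libraries lay close together and control replicate 3 above them. The same library was the highest for 77 of 78 cytosolic ribosomal protein genes and for 56 of 76 mitochondrial ones.

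**Figure D3:**
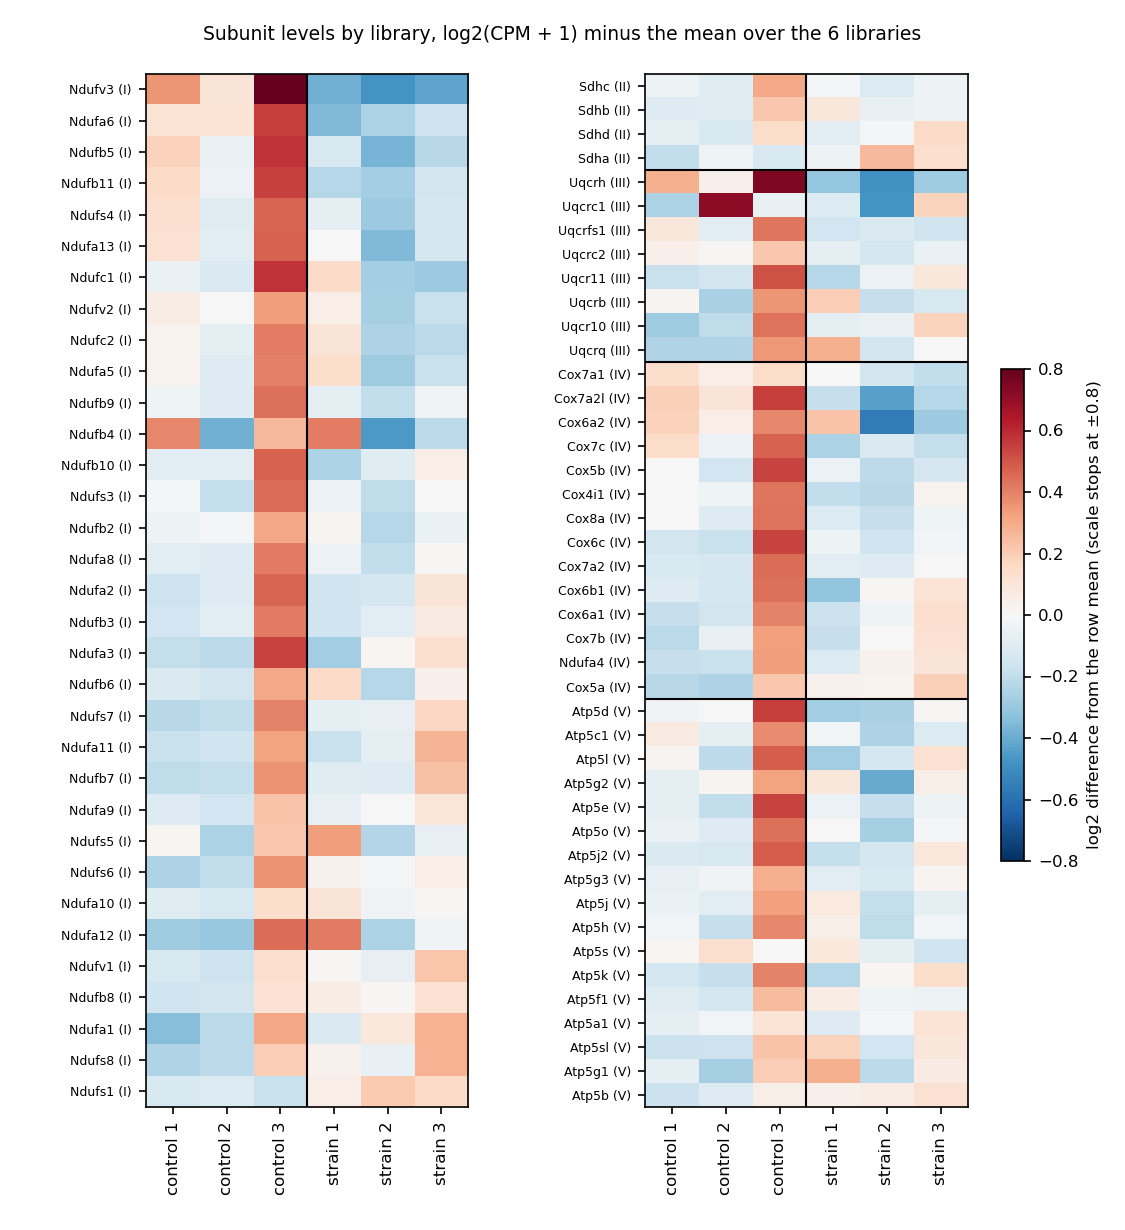
Level of 76 of the 77 tested subunits in each library as log2(CPM + 1) minus its mean over the 6 libraries (red above, blue below, scale limited to ±0.8), with complex I on the left and complexes II to V on the right. The column of control replicate 3 is red for most genes, since 64 of 77 members were highest there, and blue for Ndufs1, Sdha and Uqcrc1.

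Without control replicate 3, the median log2 fold change of the members was 0.045 and only 33 of 77 were below 0. The same 4 members were called lower and 0 higher in edgeR, against 5.36% lower and 4.44% higher of all 15732 genes then tested. Their changes became -0.67 for Ndufv3, -0.53 for Uqcrh, -0.43 for Cox7a2l and -0.37 for Ndufa6. Leaving out this library turned the sign of the members' median and ended none of the 4 calls. The 7 core subunits of complex I then had a median of 0.21, and Cox5a had a change of 0.33 (edgeR adjusted p = 0.0587). The ratio of summed CPM, strain over control, went from 0.927 to 1.02 over all members, from 0.909 to 1.01 for complex I and from 0.847 to 0.962 for complex IV.

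**Figure D4:**
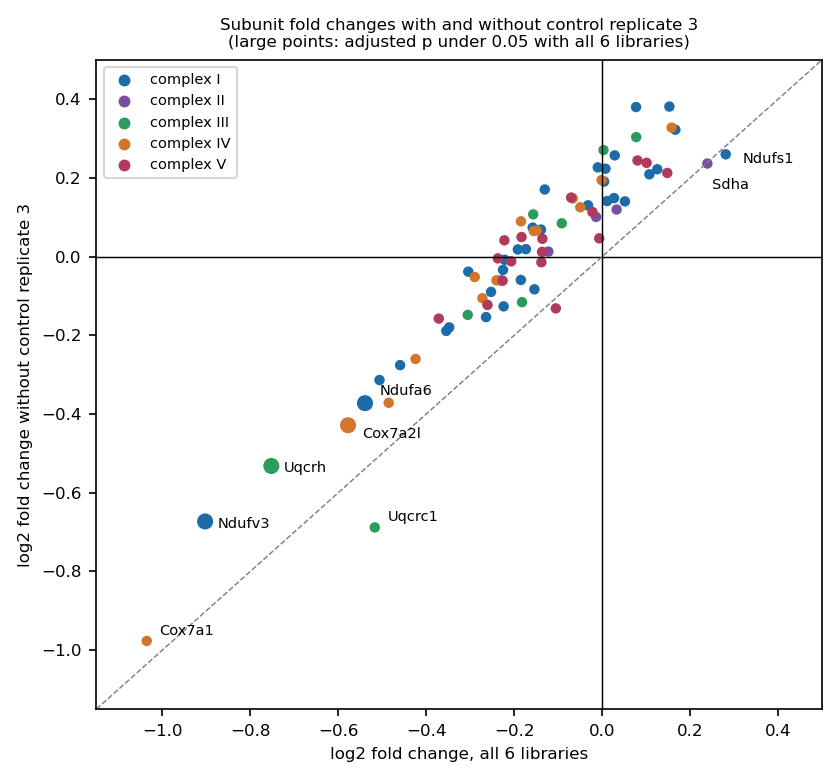
Log2 fold change of each tested subunit with all 6 libraries (x axis) and without control replicate 3 (y axis), colored by complex, with the diagonal dashed and the 4 called members drawn larger. Most points lie above the diagonal, the median moves from -0.15 to 0.045, and Ndufv3, Uqcrh, Cox7a2l and Ndufa6 stay well below 0.

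When strain replicate 1 was also left out, a comparison of 2 against 2 libraries chosen after seeing the data, 5 members were called lower and 6 higher in edgeR, against 10.4% lower and 9.77% higher of all 15476 genes then tested. The lower ones were the same 4 and Ndufb5. The higher ones were Cox5a, Ndufa1, Ndufs1, Ndufs8, Sdha and Uqcr10, and Sdha had a change of 0.31 (adjusted p = 0.0263). The median over the members was 0.019. Under other scalings the median of the members stayed below 0, with 57 of 77 below 0 under RLE scaling, 50 with library size alone and 64 with upper-quartile scaling, and the 4 lower members were called under each of them.

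Among genes outside the name rule that work with these complexes, the lists differed. The lists were chosen with earlier results of these data known, so their directions are descriptions. Over all genes tested, 7.39% were called lower and 5.94% higher, the shares to set beside the calls of each list. Of 49 tested assembly and supercomplex factors, 1 was lower, Higd1a, and 0 were higher, with a median of -0.043 that was 0.033 without control replicate 3. Higd1a, a hypoxia-inducible supercomplex factor, measured 114, 96.6 and 152 CPM in the controls and 54.1, 48.1 and 54.3 CPM under strain (log2 fold change -1.21, SE 0.15, edgeR adjusted p = 0.000851). Uqcc2 and Coa5, assembly factors of complexes III and IV, had changes of -0.036 and 0.11. Of 7 tested subunits and related genes whose names the rule does not match, 1 was lower, Ndufa4l2, a hypoxia-inducible relative of Ndufa4. It gave 2.51, 1.80 and 3.30 CPM against 0.528, 0.508 and 0.703 CPM, with no overlap, and a change of -2.12 (SE 0.32, adjusted p = 0.00227). Cyc1, the cytochrome c1 of complex III, and Ndufab1, the acyl carrier subunit of complex I, had changes of 0.10 and -0.0064, and Usmg5, a small complex V subunit, had -0.072.

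The subunits encoded in mitochondrial DNA had a median log2 fold change of 0.16 over 11 tested, with 1 lower and 0 higher, beside -0.15 for the nuclear-encoded members. Some of the 11 had low levels over the 6 libraries. ND3 lay between 0.253 and 0.740 CPM, ATP6 between 2.51 and 4.55, COX3 between 7.67 and 9.06 and COX2 between 9.78 and 14.2. The median gives these rows the same weight as the others, and the cause of their low counts was not tested. The catalytic subunit gene COX1 gave 5358, 5391 and 5163 CPM in the controls and 6559, 5527 and 5635 CPM under strain, above the controls in all 3 libraries but not called (log2 fold change 0.16, edgeR adjusted p = 0.362). CYTB, the cytochrome b gene of complex III, gave 1277, 1242 and 1238 CPM against 1823, 1247 and 1662 CPM (0.33, adjusted p = 0.131). ND6, which lies on the other strand of the mitochondrial genome from the rest, was the lower one at 61.2, 49.8 and 62.2 CPM against 48.9, 31.3 and 30.1 CPM (-0.65, adjusted p = 0.0401). Its call was lost in 4 of the 6 fits without 1 library. Without control replicate 3 the medians were 0.18 for these 11 genes and 0.045 for the nuclear-encoded members, both above 0.

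Of 21 tested regulators of respiratory gene expression, 2 were higher and 0 lower, against 5.94% and 7.39% of all genes tested. Lrpprc, which stabilises mitochondrial mRNAs, rose from 77.7, 79.9 and 67.1 CPM to 117, 103 and 99.6 CPM (log2 fold change 0.50, SE 0.11, edgeR adjusted p = 0.0141). Ppard, a nuclear receptor of fatty acid oxidation, was called with 0.784, 0.787 and 1.37 CPM against 7.35, 0.508 and 11.2 CPM, values in which strain replicate 2 was the lowest of all libraries. DESeq2 and limma-voom did not call Ppard (adjusted p of 0.0585 and 0.306), and edgeR called it in 1 of the 6 fits without 1 library. The call on Lrpprc was lost without control replicate 1 (edgeR adjusted p = 0.0539). Myc and the coactivator Pprc1 had changes of 0.040 and 0.32 and were not called.

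Of 19 tested citric acid cycle genes, 2 were higher and 0 lower, against 5.94% and 7.39% of all genes tested. Their median was 0.099. Pcx, pyruvate carboxylase, rose from 111, 127 and 114 CPM to 169, 205 and 206 CPM (log2 fold change 0.72, SE 0.11, edgeR adjusted p = 0.00248), and stayed called in each fit without 1 library. Idh3a, the catalytic subunit of NAD-dependent isocitrate dehydrogenase, had a change of 0.37 (adjusted p = 0.0361), which was called in only 1 of those 6 fits. Pdha1, of pyruvate dehydrogenase, had a change of 0.061 and was not called. Of 27 tested carriers and makers of cytochrome c and ubiquinone, 3 were higher and 1 lower, against the same shares of all genes. Slc25a5, an ADP/ATP carrier of the inner membrane, rose from 133, 141 and 155 CPM to 201, 213 and 219 CPM (0.56, adjusted p = 0.00462). Vdac1, the main anion channel of the outer membrane, fell from 535, 475 and 539 CPM to 277, 282 and 297 CPM (-0.86, adjusted p = 0.000447). Gpd2 and Aox1 were the other higher genes (0.43 and 0.53). Aox1 encodes a cytosolic aldehyde oxidase, which is neither a carrier nor a maker of cytochrome c or ubiquinone. It was called in 3 of the 6 fits without 1 library and lost without control replicate 1 (edgeR adjusted p = 0.0608), strain replicate 2 (0.0984) or strain replicate 3 (0.0602). Gpd2 lost its call under RLE scaling (adjusted p = 0.0528) and limma-voom (0.0532), and was called in 2 of those 6 fits. The phosphate carrier Slc25a3 and the ADP/ATP carrier Slc25a4 had changes of -0.0033 and -0.32, neither called.

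Of 15 tested hypoxia-linked regulators of respiration, 10 were lower and 2 higher, against 7.39% and 5.94% of all genes tested. Their median was -0.90. Pdk1, a kinase that switches off pyruvate dehydrogenase, fell from 204, 185 and 196 CPM to 83.8, 118 and 110 CPM (log2 fold change -0.90, SE 0.13, edgeR adjusted p = 0.00169). Pdk2 and Pdk3 were lower (-0.52 and -0.68), while Pdk4 was higher (0.80). Pdk2 lost its call without control replicate 1 (edgeR adjusted p = 0.0704), strain replicate 2 (0.0549) or strain replicate 3 (0.0613). The other lower genes of this list were Higd1a, Ndufa4l2, the mitophagy receptors Bnip3 (-1.45) and Bnip3l (-1.05), the Myc antagonist Mxi1 (-0.95) and the prolyl hydroxylases Egln1 (-1.28) and Egln3 (-0.98). Hif1a, the oxygen-regulated transcription factor subunit, was higher (0.64). The list's median without control replicate 3 was again -0.90, while that of the subunits changed sign. Ldha, lactate dehydrogenase, and the protease Lonp1, the most abundant genes of the list that were not called, had changes of -0.42 and -0.25. Ldha was called lower by DESeq2 (adjusted p = 0.0172) and limma-voom (0.0497), with upper-quartile scaling (0.0419), with no filter on low counts (0.00988) and without control replicate 2 (0.0414). Cox4i2, the member of this list within the respiratory chain set, could not be tested.

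For comparison, 36 of 78 cytosolic ribosomal protein genes were lower and 0 higher, against 7.39% and 5.94% of all genes tested. Their median was -0.55. Without control replicate 3, 17 were lower and the median was -0.35. Mitochondrial ribosomal proteins had 1 of 76 lower and a median of -0.074, and 0 lower and a median of 0.023 without that library. Ribosomal proteins have many close copies in the genome, so their counts are uncertain.

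At the gene starts, ATAC-seq peaks were found for most members. The authors called peaks separately in each library, with 15978 and 26652 peaks in GFP control replicates 1 and 2 and 15980 and 13610 in Piezo1 knockout replicates 1 and 2. A peak overlapped the window of 1000 bases each side of the start by at least 1 base in 41 of 69 members (59.4%) in GFP control replicate 1 and in 55 (79.7%) in replicate 2. The count was 53 (76.8%) in knockout replicate 1 and 45 (65.2%) in knockout replicate 2. Over all 27025 genes the shares were 24.6%, 32.7%, 25.8% and 25.7%, and over genes tested in the RNA comparison 53.8%, 70.5%, 56.5% and 56.6%. The GFP control shares of the members lay on both sides of the knockout shares, and with 2 peak lists in each group and no read depths no test was made. The start of Piezo1 itself had a peak in both GFP control lists and in knockout replicate 2, which does not check the knockout, since an edited gene can keep an open start.

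**Figure D5:**
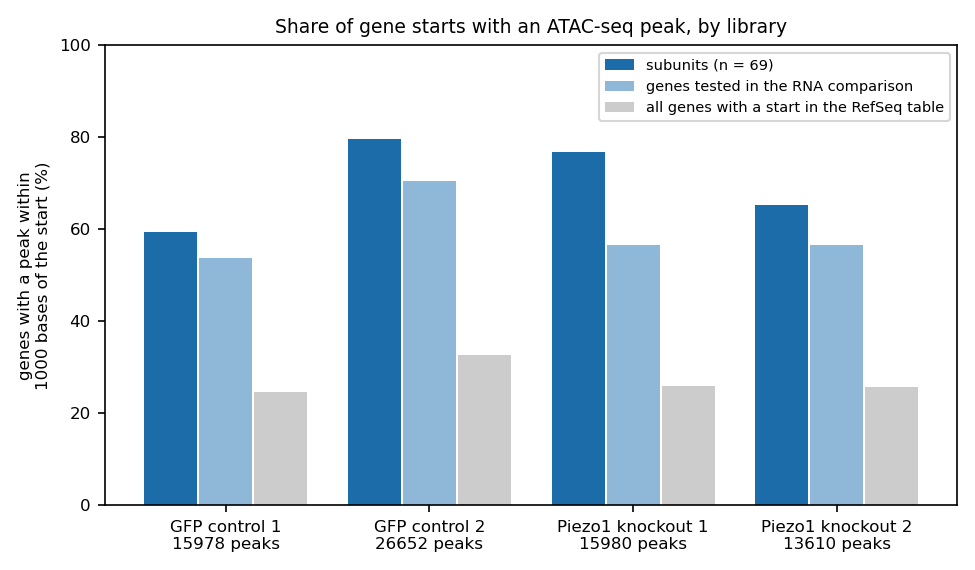
Share of gene starts with an ATAC-seq peak within 1000 bases (y axis, %) in each of the 4 libraries, for the 69 subunits with a start in the RefSeq table, the genes tested in the RNA comparison and all genes in the table. The subunits' bar is the tallest in every library, and their lowest and highest shares, 59.4% and 79.7%, are both from GFP control libraries.

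A peak was present in all 4 libraries for 37 members (53.6%), against 20.1% of all genes. No library had one for 12 members (17.4%), against 65.9% of all genes. Among genes tested in the RNA comparison, a peak in all 4 was found for 55.4% of members and 44.7% of genes. The shares without any peak were 13.8% and 27.1%. The 37 members included 15 of 31 of complex I, 1 of 3 of complex II and 3 of 5 of complex III. They also included 8 of 14 of complex IV and 10 of 16 of complex V. Ndufv3, Uqcrh, Cox7a2l and Atp5b had a peak in all 4 libraries. At Uqcrh the peak over the start in knockout replicate 2, chr4:116075018-116075404, had the authors' fold enrichment of 9.27 over local background and covers the ETS match shown above, as does the peak of knockout replicate 1, chr4:116075050-116075471. The nearest peaks upstream of the start in the GFP control lists, which begin at 116075093 in replicate 1 and 116075081 in replicate 2, leave the match just outside, a difference of peak edges that was not tested. Sdha had a peak in GFP control replicate 2 and both knockout libraries but not in GFP control replicate 1. Ndufa6, although counted in every RNA library, had no peak within the window in any of the 4 lists. The other members without a peak in any list included the muscle isoforms Cox7a1 and Cox8b and the testis isoforms Cox6b2 and Cox7b2, and also Atp5sl, Cox7b, Ndufa3, Ndufa9, Ndufc2, Atp5g1 and Atp5k.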

How the data were processed

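RNA-seq covered 3 static control and 3 cyclic strain libraries, and ATAC-seq covered 2 libraries each of GFP control and Piezo1 knockout cells. Raw read counts by gene symbol were deposited by the authors as 1 table, made with Trim Galore 0.6.5, STAR and HTSeq on mm10, per the submitters' processing notes, which also name DESeq2. The annotation, the strand setting and the versions of STAR and HTSeq were not given in the sources used here. The table has no rows outside genes. The ATAC-seq libraries each have their own peak list, deposited by the authors (Trim Galore 0.6.5, Bowtie2 2.4.2 and MACS2, per the submitters' processing notes), with each peak's fold enrichment, a ratio to local background, and its −log10 p and −log10 q values. The read depth of these libraries and any shift of reads to the transposase site were not given in the sources used here.

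Counts were compared with edgeR 4.0.16 in R 4.3.3 (TMM, filterByExpr, glmQLFit and glmQLFTest, two-sided, group as the only term), with Benjamini-Hochberg adjustment over all 15335 genes tested. The SE of a log2 fold change was its absolute value divided by the square root of F. The code was run on simulated counts with known changes, drawn independently for each gene and library. Such counts hold no library that stands apart, so that run says nothing on control replicate 3. DESeq2 1.42.0, limma-voom (limma 3.58.1), other scalings, other filters, a replicate block and fits without each library were the alternatives. Members were matched to RefSeq GRCm38.p6 by symbol (80) or synonym (3). No transcript lengths were used, so levels are not compared between genes. No replicate pair agreed within sampling noise, since chi-square per degree of freedom was 9.19 or more, and it was higher for pairs with control replicate 3 (37.5 and 59.6) or strain replicate 1 (44.3 and 34.7) than for control replicates 1 and 2 (9.19) and strain replicates 2 and 3 (15.7).

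The members and gene lists were chosen with earlier results of these data known. Members were named where they were called, where they had the highest or lowest log2 fold change of their complex or the highest or lowest adjusted p, where they were reference subunits of their complex or belonged to an isoform set, and where they could not be tested. List genes were named where called, with the 2 most abundant others of each list. A few genes that these rules name are not reported here.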

Additional observations from a re-analysis of the deposited data

How the results depend on the processing

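Of 464 refits of named members, 419 kept their direction and side of the threshold, 6 lost and 7 gained a call, and 32 changed sign, all without a call. Members called lower were 7 with no filter on low counts and 1 to 8 when a library was left out; 1 was called higher with library size alone and with DESeq2, and 0 without any 1 library. The median of the members lay between -0.24 and 0.045 when a library was left out and the intervals inside 1.5-fold numbered 35 to 64. With no filter, 1428 of all genes were called higher and 1574 lower. Without 1 library, 369 to 1085 were higher and 577 to 1244 lower. With library size alone 1169 were higher and 935 lower, against 911 and 1134 as reported. Leaving out control replicate 3 and strain replicate 1, chosen after seeing the data, gave 1512 genes higher and 1614 lower, 6 members higher, a median of 0.019 and 66 such intervals.

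A fit with the replicate number as a block called 8 members lower (those 4, Atp5d, Ndufb11, Ndufb5 and Ndufs4) and 0 higher. Over all genes it called 1619 lower and 1557 higher. Same-numbered libraries correlated at 0.059, 0.37 and 0.19 in their deviations from the group means, and strain replicates 2 and 3, but not 1, correlated best with the control of their own number. Since the correlation for replicate 1 was not over 0.1, the numbers were not taken as pairs.

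With library size alone the log2 fold change was 0.043 for Atp5a1, 0.00103 for Cox7b, 0.050 for Ndufa4, 0.039 for Sdhb, 0.019 for Uqcc2 and 0.047 for Slc25a3. Ndufa4 was 0.018 with limma-voom and 0.017 with the replicate block, and Myc was -0.0026 with upper-quartile scaling. Without both libraries the values were 0.095 for Atp5a1, 0.22 for Cox6a1, 0.18 for Cox6b1, 0.079 for Cox7a2, 0.20 for Cox7b, 0.25 for Ndufa4, 0.049 for Sdhb, 0.096 for Uqcc2, -0.034 for Myc, 0.13 for Slc25a3 and 0.26 for Usmg5. Without 1 library each, values ranged from -0.071 to 0.046 for Atp5a1, from -0.031 to 0.24 for Atp5g1, from -0.17 to 0.15 for Cox6a1, from -0.25 to 0.066 for Cox6b1, from -0.26 to 0.065 for Cox7a2, from -0.16 to 0.13 for Cox7b, from -0.092 to 0.19 for Ndufa4, from -0.070 to 0.10 for Sdhb, from -0.20 to 0.013 for Sdhc, from -0.85 to 0.076 for Uqcrc1, from -0.054 to 0.30 for Uqcrq, from -0.14 to 0.19 for Uqcc2, from -0.014 to 0.10 for Myc, from -0.058 to 0.084 for Slc25a3 and from -0.21 to 0.19 for Usmg5. The cause of these changes was not tested.

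Peak counts at the members' starts stayed between 39 and 41 in GFP control replicate 1 and at 55 in replicate 2, between 50 and 53 in knockout replicate 1 and between 40 and 45 in knockout replicate 2, over windows of 250 and 500 bases, a −log10 q of at least 5 and peak summits. Isoform shares could not be divided by transcript length. Low counts limited Uqcrc1, Ndufb4 and the restricted isoforms.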

Other observations

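Of the 9 pseudogene rows left out, 7 had no count in any library. Atp5l-ps1 had between 4 and 23 counts and Atp5l2-ps between 18 and 47 in a library, with the highest value of each under strain, in replicates 2 and 3. The parent gene Atp5l had between 413 and 682 counts in a library.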
